A study of Homo sapiens with 12 samples.

Results

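Glucose uptake and its breakdown to lactate were followed through 10 genes: SLC2A1 (the glucose transporter GLUT1), the hexokinases HK1 and HK2, the phosphofructokinases PFKM and PFKP, the aldolases ALDOA and ALDOC, the phosphoglycerate kinase PGK1, and the lactate dehydrogenases LDHA and LDHB. Members were the probe sets whose single annotated symbol was one of these, which gave 17 of the 22283 probe sets on the array and 10 of the 11963 genes with such a probe set. Glycolysis turns glucose into pyruvate in the cytosol and yields ATP without oxygen. Hexokinase traps glucose in the cell, phosphofructokinase is the main point of control, and lactate dehydrogenase regenerates the NAD+ that the pathway consumes. Several steps are shared between isozymes of different tissues, and tumour cells often run the pathway fast even when oxygen is present.

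The cells were RD, an established line from an embryonal rhabdomyosarcoma, a tumour of the skeletal muscle lineage. In one construct they carried PAX3-FKHR-ER, the PAX3-FKHR fusion protein of alveolar rhabdomyosarcoma joined to a modified ligand-binding domain of the estrogen receptor, which 4-hydroxytamoxifen (4-OHT) activates. In the other they carried pK1, the vector alone. RNA was measured on 12 arrays, 1 per sample, in 4 groups of 3: PAX3-FKHR-ER with 4-OHT (30 nM for 24 h), PAX3-FKHR-ER without 4-OHT, pK1 with 4-OHT (the same dose and time) and pK1 without 4-OHT. All groups shared the line, serum-containing medium and transduction. The design text speaks of 3 transduced populations for each construct, and the labels do not say whether a replicate number marks one of them. The construct adds the fusion from outside to a tumour line that lacks it, so it models the protein and not an alveolar tumour. The muscle genes MYOD1, DES, CHRNA1 and CDH15 were bright (medians of 1111, 329.5, 1640.2 and 269.8 over the 12 arrays), whereas MYF6, CKM, MYH3 and MYOG had medians below the signal filter. Of 10 markers of other lineages, KRT8, KRT18, CD3E and PECAM1 had medians above the filter (45.7, 1019.8, 58.9 and 55.9). The epithelial marker KRT18 thus lay far above the filter, although its signal cannot be ranked against those of the muscle genes.

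The 4 replicate 1 arrays stood apart from the other 8. The median of 24 spiked poly-A control probe sets was between 2.58 and 7.41 on those 4 and between 118 and 291 on the others. Correlations across probe sets were 0.957 to 0.982 among the replicate 1 arrays and 0.867 to 0.982 among the other 8, and 0.815 to 0.869 between the sets, so the lowest values among the other 8 reached the range between the sets. Results were therefore also computed from replicates 2 and 3, and with a replicate block in the fit. For the 4-OHT changes and their difference, the block was the pair of same-numbered arrays of a construct. For the comparisons between the constructs it was the replicate number. Values are array signals on a linear scale, and levels of different probe sets cannot be ranked against each other. Fitted differences are on the log2(signal + 16) scale and come from limma. Because the arrays were scaled to a common mean, total RNA per cell cannot be compared, and fewer expressing cells cannot be told apart from less RNA per cell.

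All 10 genes had windows among the RefSeq promoter sequences (GRCh38.p14), and 4 of them had a single window, that is 1 listed start. Which starts these cells use was not measured. The 250 bases before the start are printed for these 4, 5′ to 3′ on the gene's strand, because glycolytic genes are textbook targets of the hypoxia-inducible factors, which were among the other genes followed. Capitals mark ACGTG and GCGTG, the core of the hypoxia response element, on either strand (CACGT and CACGC on the other); the palindrome CACGTG counts as 2 overlapping matches. The windows are ALDOC at chr17:28576896-28577145 (minus strand), PGK1 at chrX:78103998-78104247 (plus strand), SLC2A1 at chr1:42958869-42959118 (minus strand) and LDHB at chr12:21657843-21658092 (minus strand).
ALDOC: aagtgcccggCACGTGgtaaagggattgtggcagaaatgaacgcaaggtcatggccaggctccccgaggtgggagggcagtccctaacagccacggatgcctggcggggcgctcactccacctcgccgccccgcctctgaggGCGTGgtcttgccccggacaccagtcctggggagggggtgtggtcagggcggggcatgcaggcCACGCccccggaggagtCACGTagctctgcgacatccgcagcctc
PGK1: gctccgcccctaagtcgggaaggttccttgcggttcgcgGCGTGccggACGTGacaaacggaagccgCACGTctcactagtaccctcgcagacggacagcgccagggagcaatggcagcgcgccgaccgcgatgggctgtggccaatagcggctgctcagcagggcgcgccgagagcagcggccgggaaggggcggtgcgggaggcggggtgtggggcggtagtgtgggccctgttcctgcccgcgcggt
SLC2A1: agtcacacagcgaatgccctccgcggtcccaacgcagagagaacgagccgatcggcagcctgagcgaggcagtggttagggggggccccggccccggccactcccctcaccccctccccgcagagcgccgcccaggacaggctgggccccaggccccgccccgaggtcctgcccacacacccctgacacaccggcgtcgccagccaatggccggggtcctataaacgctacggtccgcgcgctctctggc
LDHB: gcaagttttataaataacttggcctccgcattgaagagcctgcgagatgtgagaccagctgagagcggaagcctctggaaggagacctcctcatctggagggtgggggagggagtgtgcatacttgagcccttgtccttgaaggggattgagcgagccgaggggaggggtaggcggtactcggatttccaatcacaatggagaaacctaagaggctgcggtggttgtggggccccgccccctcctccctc
ALDOC held 5 matches and PGK1 held 3, while SLC2A1 and LDHB held 0. Of all 35116 promoter windows of the same length, 43.2% held at least 1 match, and 13 of the 29 windows of the members did. A match is a run of letters and not a binding site, and no match says only that these letters were absent from this window.

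No member changed past the threshold in any comparison. Of the 17 member probe sets, 16 passed the filter on low signal, and 0 of these 16 reached an adjusted p of 0.05 in limma for 4-OHT in PAX3-FKHR-ER cells, for 4-OHT in pK1 cells, for the difference of those changes, or for the constructs compared without or with 4-OHT. Over all 13329 probe sets tested the share called was likewise 0.0% in each of the 5 comparisons. At an unadjusted p of 0.05 the 12-array fit held 0 member probe sets in each comparison, against 0.465% of all probe sets for 4-OHT in PAX3-FKHR-ER cells, 0.54% for 4-OHT in pK1 cells, 0.293% for the difference of the changes, 2.08% for the constructs without 4-OHT and 2.0% for the constructs with 4-OHT. The half-width of the 95% confidence interval of a member's brightest probe set ran from 0.38 to 1.42 log2 units for the 4-OHT and construct comparisons. Differences smaller than those could not be resolved in that fit. The smallest adjusted p of any member in any fit was 0.0871, for HK1 with 4-OHT in PAX3-FKHR-ER cells in replicates 2 and 3.

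**Figure D1:**
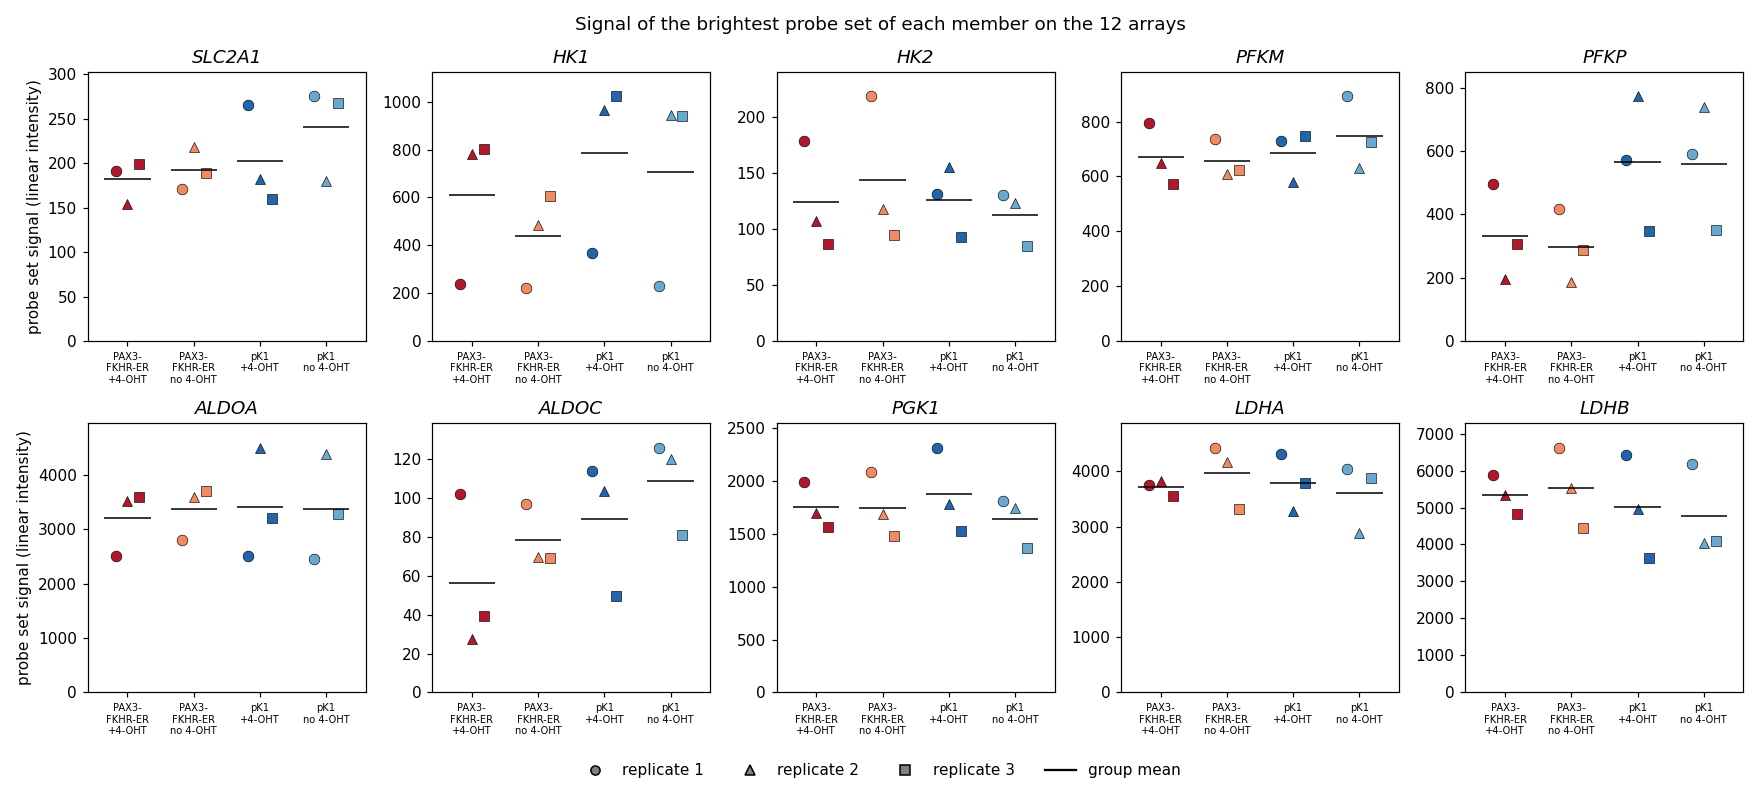
Signal of the brightest probe set of each of the 10 genes (linear intensity, axis from 0) on every array, by group; symbols mark the replicate number and the bar is the group mean of 3 arrays. HK1 lies between 223 and 369 on the 4 replicate 1 arrays and between 486 and 1023 on the other 8, and PFKP lies lower in PAX3-FKHR-ER than in pK1 cells at every replicate number.

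SLC2A1, which carries glucose across the plasma membrane, was read by 1 probe set above the filter. Its signal was 191, 154 and 199.6 in PAX3-FKHR-ER cells with 4-OHT, 171, 218 and 189 in PAX3-FKHR-ER cells without 4-OHT, 265, 183 and 160.3 in pK1 cells with 4-OHT, and 275, 179.8 and 268 in pK1 cells without 4-OHT. The highest values belonged to pK1 cells in replicate 1 and in untreated replicate 3, but the groups overlapped. Without 4-OHT the transporter differed by -0.28 log2 units between PAX3-FKHR-ER and pK1 cells (95% confidence interval -0.81 to 0.24), and in replicates 2 and 3 alone by -0.10. The other SLC2A1 probe set had a mean signal below the filter, ranged from 5.42 to 72.0 and was not tested.

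HK1 and HK2 both phosphorylate glucose; HK1 is the form found in most tissues, and HK2 is the form of insulin-sensitive muscle and fat that many tumours also use. HK1 read 239, 782 and 804 in PAX3-FKHR-ER cells with 4-OHT, 223, 486 and 604 in PAX3-FKHR-ER cells without 4-OHT, 369, 965 and 1023 in pK1 cells with 4-OHT, and 229, 945 and 939 in pK1 cells without 4-OHT. Within each replicate number HK1 was lower in PAX3-FKHR-ER than in pK1 cells, in 6 of 6 comparisons. These are 3 replicate numbers, each taken with and without 4-OHT, and not 6 independent comparisons. In replicates 2 and 3 the 4 PAX3-FKHR-ER arrays lay below all 4 pK1 arrays. Its replicate 1 signals were far below those of the other arrays in every group. Across the 12 arrays HK1 differed by -0.41 log2 units with 4-OHT (95% confidence interval -1.83 to 1.01) and by -0.53 without 4-OHT (-1.95 to 0.89). With the replicate block the intervals were -0.79 to -0.03 with and -0.91 to -0.15 without 4-OHT, and the adjusted p-values in limma were 0.704 and 0.661. These intervals can be too narrow, because that block did not link the treated and untreated arrays of a construct. The HK1 differences were -0.32 with and -0.78 without 4-OHT in replicates 2 and 3. Without the block, leaving out replicate 1 of the treated PAX3-FKHR-ER cells gave 0.14 with 4-OHT, the opposite sign.

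HK1 was also higher with 4-OHT than without it in all 3 pairs of each construct. The pair changes were 0.09, 0.67 and 0.40 log2 units in PAX3-FKHR-ER cells and 0.65, 0.03 and 0.12 in pK1 cells. The largest change lay in replicate 2 for PAX3-FKHR-ER cells and in replicate 1 for pK1 cells. The fitted change was 0.39 in PAX3-FKHR-ER cells (95% confidence interval -1.03 to 1.81, or 0.06 to 0.72 with the block) and 0.27 in pK1 cells (-1.15 to 1.69, or -0.06 to 0.60 with the block). The difference between these changes was 0.12 (-1.89 to 2.13). Without the block, leaving out replicate 1 of the untreated PAX3-FKHR-ER cells gave a change of -0.020, and leaving out replicate 1 of the untreated pK1 cells gave -0.39. From replicates 2 and 3 with the block the changes were 0.54 in PAX3-FKHR-ER cells and 0.08 in pK1 cells, and their difference was 0.46 with an adjusted p of 0.427 in limma. The untreated PAX3-FKHR-ER arrays enter both the 4-OHT change and the untreated construct difference of HK1, so these values are not independent of each other.

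HK2 read 178, 107 and 86.9 in PAX3-FKHR-ER cells with 4-OHT, 218, 118 and 94.6 in PAX3-FKHR-ER cells without 4-OHT, 131, 155 and 92.3 in pK1 cells with 4-OHT, and 130.2, 123 and 84.9 in pK1 cells without 4-OHT. The groups overlapped, and replicate 1 of PAX3-FKHR-ER cells held the highest signals. With 4-OHT it was lower in 3 of 3 PAX3-FKHR-ER pairs (-0.27, -0.12 and -0.10 log2 units) and higher in 3 of 3 pK1 pairs (0.01, 0.30 and 0.10). A dimmer second HK2 probe set, with signals from 13.1 to 57.0, was lower with 4-OHT in all 3 pairs of both constructs. Its mean of 39.0 lay just above the filter of 36.7. Its mean in pK1 cells was 25.6 with 4-OHT, below that level, and 42.8 without 4-OHT. Its change in pK1 cells was -0.53 log2 units (95% confidence interval -1.13 to 0.08, or -0.96 to -0.09 with the block, adjusted p of 0.711 in limma), so the 2 probe sets of HK2 gave opposite signs there.

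PFKM and PFKP form the enzyme that commits sugar to glycolysis; PFKM is the muscle subunit and PFKP the platelet subunit. PFKP read 496, 195 and 306 in PAX3-FKHR-ER cells with 4-OHT, 417, 187 and 286 in PAX3-FKHR-ER cells without 4-OHT, 572, 773 and 348 in pK1 cells with 4-OHT, and 591, 739 and 351 in pK1 cells without 4-OHT. It was lower in PAX3-FKHR-ER cells in 6 of 6 matched comparisons, without overlap within replicate 1 and within replicates 2 and 3. The gap was wide in replicate 2, at -1.90 log2 units both with and without 4-OHT, and narrow in replicate 3, at -0.18 with and -0.28 without 4-OHT. The fitted difference was -0.76 with 4-OHT (95% confidence interval -1.68 to 0.17) and -0.89 without 4-OHT (-1.81 to 0.04), the widest of the 10 genes in both comparisons. With both pK1 replicate 2 arrays left out, a setting chosen after the values were seen, it was -0.50 with and -0.66 without 4-OHT. That setting kept the PAX3-FKHR-ER replicate 2 arrays, which held the lowest PFKP signals, 195 and 187. It therefore does not show the difference without replicate 2. In replicate 1 the gap was -0.20 with and -0.49 without 4-OHT. Within a construct the 4-OHT differences of PFKP were 0.24, 0.06 and 0.09 log2 units in the PAX3-FKHR-ER pairs and -0.05, 0.06 and -0.01 in the pK1 pairs.

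PFKM read 793, 649 and 573 in PAX3-FKHR-ER cells with 4-OHT, 736, 609 and 622 in PAX3-FKHR-ER cells without 4-OHT, 727, 579 and 747 in pK1 cells with 4-OHT, and 892, 629 and 724 in pK1 cells without 4-OHT. These groups overlapped throughout. Without 4-OHT it was lower in PAX3-FKHR-ER cells at all 3 replicate numbers, by 0.05 to 0.27 log2 units, and with 4-OHT it was lower at 1 of 3.

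ALDOA and ALDOC split fructose 1,6-bisphosphate; ALDOA is the muscle form and ALDOC the form of brain. ALDOC read 102, 27.7 and 39.4 in PAX3-FKHR-ER cells with 4-OHT, 97.0, 69.7 and 69.2 in PAX3-FKHR-ER cells without 4-OHT, 114, 103 and 49.7 in pK1 cells with 4-OHT, and 126, 119.9 and 81.0 in pK1 cells without 4-OHT. It was lower in PAX3-FKHR-ER than in pK1 cells in 6 of 6 matched comparisons, although the groups overlapped in replicates 2 and 3. The fitted difference was -0.61 log2 units with 4-OHT (95% confidence interval -1.44 to 0.21) and -0.39 without 4-OHT (-1.22 to 0.43). These were -0.85 and -0.43 in replicates 2 and 3 with the block, with adjusted p-values of 0.363 and 0.697 in limma.

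ALDOC was lower with 4-OHT in 5 of 6 pairs. The pair changes were 0.06, -0.97 and -0.62 log2 units in PAX3-FKHR-ER cells and -0.13, -0.19 and -0.56 in pK1 cells. The exception was replicate 1 of PAX3-FKHR-ER cells. The fitted change was -0.51 in PAX3-FKHR-ER cells (95% confidence interval -1.34 to 0.32, or -0.97 to -0.05 with the block) and -0.29 in pK1 cells (-1.12 to 0.53, or -0.75 to 0.17 with the block). Without replicate 3 of the treated pK1 cells, and without the block, the pK1 change was 0.016. The change in PAX3-FKHR-ER cells was -0.80 in replicates 2 and 3 with the block, with an adjusted p of 0.16 in limma.

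ALDOA was bright, and the more intense of its probe sets read 2515, 3516 and 3589 in PAX3-FKHR-ER cells with 4-OHT, 2797, 3593 and 3709.5 in PAX3-FKHR-ER cells without 4-OHT, 2510.4, 4500.3 and 3215 in pK1 cells with 4-OHT, and 2446, 4385 and 3288 in pK1 cells without 4-OHT. Replicate 1 was low in every group and pK1 replicate 2 was the highest pair. The second ALDOA probe set ranged from 2386 to 4712 over the 12 arrays. Between the constructs neither ALDOA probe set had the same sign at all 3 replicate numbers.

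PGK1, which makes the first ATP of the pathway, was read by 4 probe sets, and 3 of them were bright. The brightest read 1997, 1695 and 1567 in PAX3-FKHR-ER cells with 4-OHT, 2083, 1687 and 1479 in PAX3-FKHR-ER cells without 4-OHT, 2317, 1783 and 1531 in pK1 cells with 4-OHT, and 1814, 1751 and 1369.8 in pK1 cells without 4-OHT. The groups overlapped, and its 12 signals spanned 1.69-fold. Its changes with 4-OHT in pK1 cells were 0.35, 0.03 and 0.16 log2 units, against changes of -0.06, 0.01 and 0.08 in PAX3-FKHR-ER cells. The remaining, dim probe set ranged from 10.7 to 68.8.

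LDHA and LDHB are the subunits of lactate dehydrogenase; LDHA is the main one in skeletal muscle and LDHB the main one in heart. LDHA read 3749.6, 3832 and 3556 in PAX3-FKHR-ER cells with 4-OHT, 4428, 4171 and 3317 in PAX3-FKHR-ER cells without 4-OHT, 4307, 3280.1 and 3783 in pK1 cells with 4-OHT, and 4049.8, 2891 and 3889 in pK1 cells without 4-OHT. Its 12 signals spanned 1.53-fold and the groups overlapped. LDHB had 2 probe sets which, like those of ALDOA, are of a kind that can also read closely related transcripts, and the brighter read 5878, 5330.2 and 4826 in PAX3-FKHR-ER cells with 4-OHT, 6615, 5532 and 4443 in PAX3-FKHR-ER cells without 4-OHT, 6419, 4969 and 3645 in pK1 cells with 4-OHT, and 6189, 4044 and 4099 in pK1 cells without 4-OHT. It was higher in PAX3-FKHR-ER cells in all 3 comparisons without 4-OHT and in 2 of 3 with 4-OHT.

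The second LDHB probe set was higher in PAX3-FKHR-ER cells in 6 of 6 matched comparisons. It read 5497, 5092 and 3807 in PAX3-FKHR-ER cells with 4-OHT, 5592, 5588 and 3749.6 in PAX3-FKHR-ER cells without 4-OHT, 5301, 3757 and 3415 in pK1 cells with 4-OHT, and 5265, 3239.7 and 3314 in pK1 cells without 4-OHT. Replicate 2 carried the widest gap, 0.44 log2 units with and 0.78 without 4-OHT, whereas the gaps in replicates 1 and 3 ran from 0.05 to 0.18. The fitted difference was 0.21 with 4-OHT (95% confidence interval -0.34 to 0.77) and 0.35 without 4-OHT (-0.21 to 0.90, or 0.05 to 0.65 with the block, adjusted p of 0.661 in limma).

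**Figure D2:**
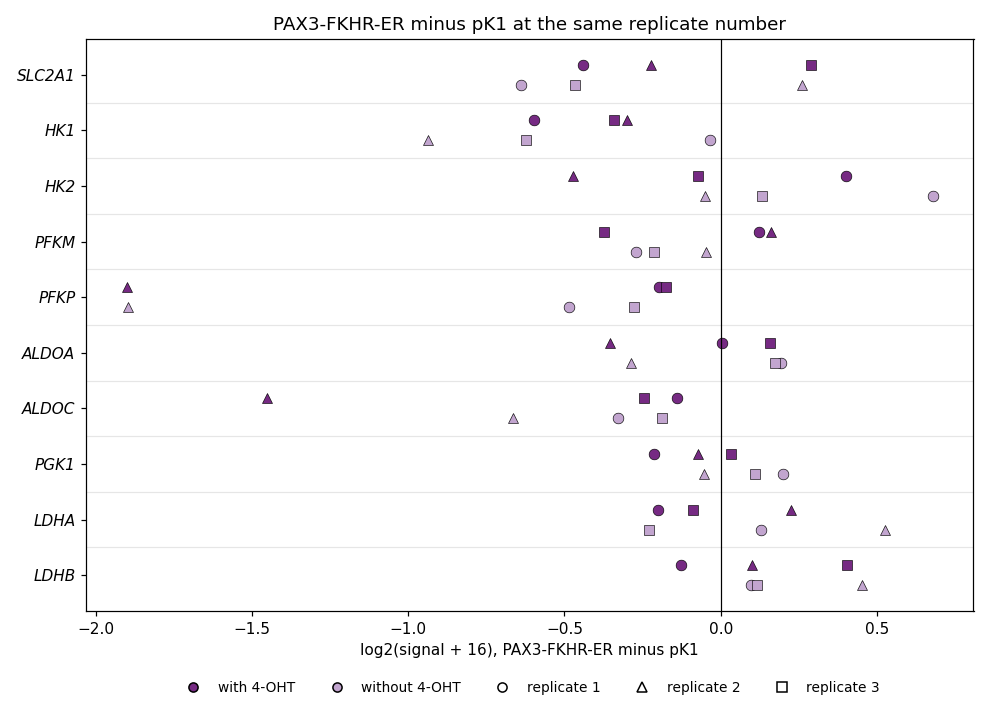
PAX3-FKHR-ER minus pK1 on the log2(signal + 16) scale at each replicate number, for the brightest probe set of each gene; dark points are with 4-OHT and pale points without it. All 6 points of HK1, PFKP and ALDOC lie left of 0, and the PFKP points of replicate 2 lie at -1.90.

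Counted over the 16 tested member probe sets, 3 were lower in PAX3-FKHR-ER cells in all 6 matched comparisons (HK1, PFKP and ALDOC), where 3.34% of all tested probe sets were. The second LDHB probe set was the 1 that was higher in all 6, where 3.23% of all were. In replicates 2 and 3, 2 member probe sets (HK1 and PFKP) were lower without overlap of the constructs, against 6.62% of all, and 0 were higher without overlap, against 7.25% of all. These rules were chosen after the values had been seen, and the labels do not state that a replicate number links the constructs. The 6 comparisons are 3 replicate numbers, each counted with and without 4-OHT, so they are not independent of each other. Taking each treatment alone, without 4-OHT 4 were lower at all 3 numbers (HK1, PFKM, PFKP and ALDOC; 13.3% of all) and both LDHB probe sets were higher (12.4% of all). With 4-OHT 3 were lower (HK1, PFKP and ALDOC; 9.88% of all), and the dimmer HK2 and second LDHB probe sets were higher (12.6% of all). The isozymes HK2, PFKM and ALDOA of the same 3 steps were lower in 3, 4 and 2 of 6 comparisons; whether isozymes differed from each other was not tested.

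With the replicate block the constructs without 4-OHT gave an unadjusted p below 0.05 in limma for 3 member probe sets: HK1 and PFKP lower (p of 0.0109 and 0.0309) and the second LDHB probe set higher (p of 0.027), where 7.36% of all probe sets passed. With 4-OHT there were 2, HK1 and ALDOC, both lower (p of 0.0369 and 0.0471), where 6.98% of all passed. After adjustment 0.0% of all probe sets and 0 members were called in either comparison. Between the constructs the block was the replicate number alone. It took no account of treated and untreated arrays of the same construct and number deviating together. These p-values, and the intervals between the constructs with the block, can therefore be too small and too narrow. In replicates 2 and 3 with the block the adjusted calls were 0.158% of all probe sets with 4-OHT and 0.0075% without 4-OHT, and 0 were members. The median difference of the 10 genes, each by its brightest probe set, was -0.07 log2 units with 4-OHT and -0.08 without 4-OHT, against medians of 0.02 and -0.01 over all tested probe sets. With 4-OHT 1 gene had a positive difference (LDHB) and 9 a negative one, and without 4-OHT 5 were positive and 5 negative. Some of the negative differences with 4-OHT were near 0, such as -0.02 for LDHA and -0.03 for PFKM. The dimmer HK2 probe set differed by 0.47, against -0.05 for the brighter. In replicates 2 and 3 with the block, 3 genes were positive and 7 negative with 4-OHT. The share of all probe sets with each sign was not counted.

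**Figure D3:**
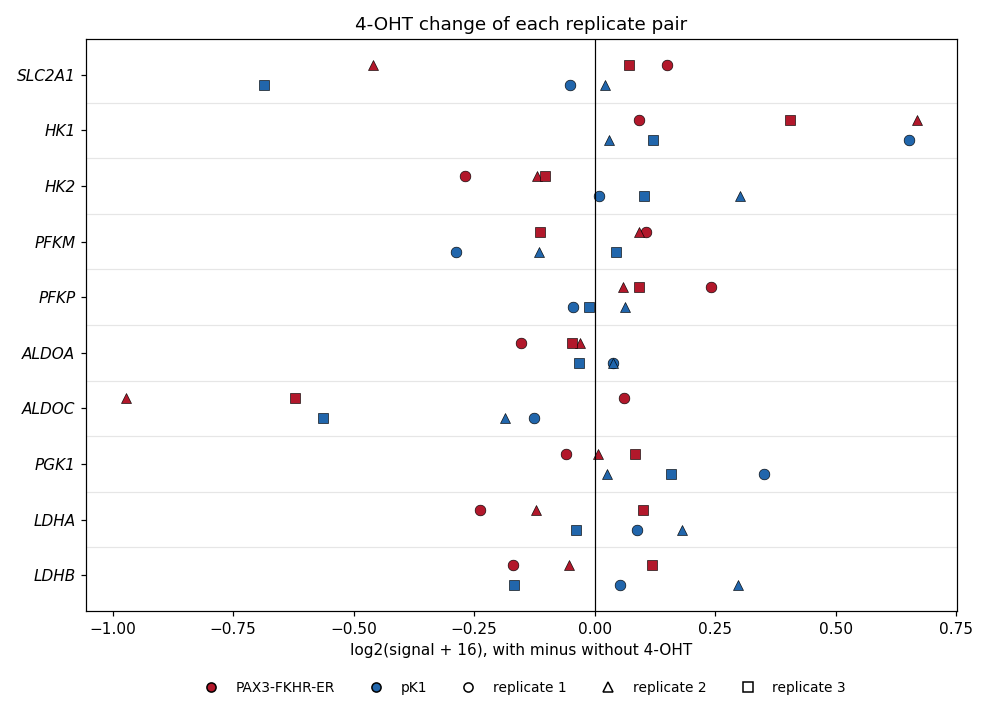
Change with 4-OHT (with minus without, log2(signal + 16) scale) of each replicate pair, for the brightest probe set of each gene, in PAX3-FKHR-ER cells (red) and pK1 cells (blue). HK1 lies right of 0 in all pairs of both constructs, and HK2 lies left of 0 in PAX3-FKHR-ER cells and right of 0 in pK1 cells.

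Among the 4-OHT pairs of PAX3-FKHR-ER cells, 2 member probe sets (HK1 and PFKP) were higher in all 3, where 13.2% of all tested probe sets were, and 3 (both of HK2 and 1 of ALDOA) were lower in all 3, where 14.9% of all were. In pK1 cells 5 were higher in all 3 pairs (HK1, the brighter HK2 probe set, 2 of PGK1 and the second of LDHB; 12.6% of all), and 2 were lower (the dimmer HK2 probe set and ALDOC; 16.6% of all). The brighter HK2 probe set was the 1 of 16 with opposite signs in all pairs of the constructs, where 3.12% of all did. With the block, limma's unadjusted p was below 0.05 in PAX3-FKHR-ER cells for HK1 (higher, p of 0.0258) and ALDOC (lower, p of 0.033), where 6.71% of all passed, and in pK1 cells for the dimmer HK2 probe set (p of 0.0216), where 6.87% of all passed. For the difference of the changes 0 members passed, where 4.76% of all did.

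In replicates 2 and 3 with the block, adjusted calls came to 1.4% of all probe sets for 4-OHT in PAX3-FKHR-ER cells, 0.0% in pK1 cells and 0.0525% for the difference of the changes, and 0 were members. HK1 came nearest, at 0.54 log2 units in PAX3-FKHR-ER cells (95% confidence interval 0.26 to 0.81, p of 0.00182 and adjusted p of 0.0871 in limma). The median change of the 10 genes over all 12 arrays was -0.06 log2 units in PAX3-FKHR-ER cells and 0.04 in pK1 cells, against -0.01 and -0.03 over all tested probe sets. In PAX3-FKHR-ER cells 4 genes had a positive and 6 a negative change, and in pK1 cells 7 were positive and 3 negative. The share of all probe sets with each sign was not counted here either.

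**Figure D4:**
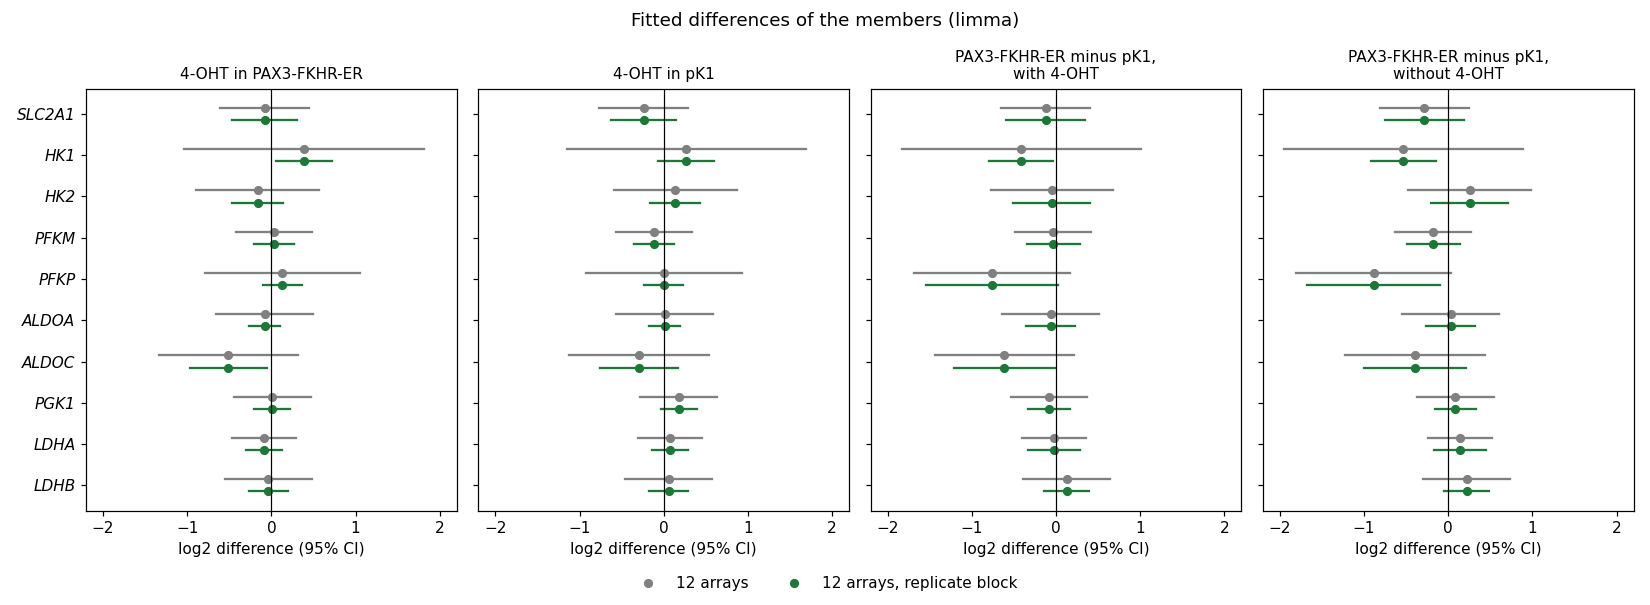
Fitted log2 differences with 95% confidence intervals for the brightest probe set of each gene in 4 comparisons, from all 12 arrays without (grey) and with (green) the replicate block. The HK1 interval narrows from -1.03 to 1.81 without the block to 0.06 to 0.72 with it for 4-OHT in PAX3-FKHR-ER cells, and no adjusted p is below 0.05 in either fit.

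The correlations between members lay on both sides of 0, and pairs of other genes were not computed for comparison. After the mean of each replicate number was subtracted, the 45 pairs of genes had Pearson correlations over the 12 arrays from -0.74 to 0.74 with a median of 0.06, and 24 were above 0. The highest was between PFKP and ALDOC and the lowest between PFKP and LDHA. Among the 8123 other genes, those most like PFKP were GLA (r of 0.985), FOXF2 (0.985) and SCML1 (0.984), and those most like HK1 were ABI1 (0.966), ZNHIT2 (0.956) and HLA-E (0.924). Most like ALDOC were GPC4 (0.958), DIP2C (0.935) and ADAP2 (0.935), and most like LDHB was GNL1 (0.944). The closest to ALDOA was PAF1 (0.98), to LDHA PHKG1 (0.968), to PFKM CDKN2D (0.95), to HK2 NSMCE4A (0.901), to PGK1 C6orf62 (0.897) and to SLC2A1 ACKR2 (0.897). The likeness values are the highest picked from 8123 correlations over 12 arrays that share groups and populations. High values of r arise from such a choice, so these are descriptions only.

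The rest of the pathway also gave 0 calls. Of 16 other listed glycolytic enzymes 11 were tested, and 0 passed limma's adjusted threshold in any comparison, with or without the block or in replicates 2 and 3; their median difference between the constructs was 0.03 log2 units with and 0.02 without 4-OHT. ENO3, the muscle enolase, read 87.1, 510.4 and 422 in PAX3-FKHR-ER cells with 4-OHT, 78.7, 452 and 564 in PAX3-FKHR-ER cells without 4-OHT, 76.2, 99.8 and 257 in pK1 cells with 4-OHT, and 93.2, 103 and 244 in pK1 cells without 4-OHT. In replicates 2 and 3 all its PAX3-FKHR-ER arrays lay above all its pK1 arrays, while the 4 replicate 1 arrays lay between 76.2 and 93.2. Its difference was 1.01 log2 units with and 0.98 without 4-OHT over 12 arrays, and 1.43 and 1.57 in replicates 2 and 3 with the block (adjusted p of 0.212 and 0.346 in limma). Without 4-OHT, ENO2, the neuronal enolase, read 10.2, 5.30 and 63.3 in PAX3-FKHR-ER cells and 34.3, 118 and 103 in pK1 cells. Of its 12 signals 5 lay below the 36.7 of the filter. These included replicates 1 and 2 of the untreated PAX3-FKHR-ER cells, so no size of the difference is given. PKM, the pyruvate kinase, differed by 0.29 between PAX3-FKHR-ER cells with and without 4-OHT (p of 0.15 in limma). In pK1 cells it differed in the same direction, by 0.22 (p of 0.261 in limma).

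Neighbouring routes were measured less fully and gave 0 calls too: 3 of 4 enzymes that set fructose 2,6-bisphosphate, 5 of 10 other hexose and lactate carriers, 12 of 13 genes of pyruvate entry into mitochondria, 10 of 11 genes of glycogen, 6 of 7 of the pentose phosphate route and 2 of 5 of gluconeogenesis were tested. PFKFB3, which makes the activator of phosphofructokinase, differed by -0.39 log2 units between PAX3-FKHR-ER and pK1 cells with 4-OHT (p of 0.174 in limma). PDHB, a subunit of pyruvate dehydrogenase, read 424, 178 and 265 in PAX3-FKHR-ER cells with 4-OHT, 501, 127 and 273 in PAX3-FKHR-ER cells without 4-OHT, 540, 1128 and 383 in pK1 cells with 4-OHT, and 503, 1075 and 317 in pK1 cells without 4-OHT. As for PFKP, replicate 2 held both the lowest PAX3-FKHR-ER and the highest pK1 signals. PDHB differed by -1.14 with and -1.05 without 4-OHT (p of 0.0711 and 0.0926 in limma). PDK2, a kinase that inhibits that dehydrogenase, differed by -0.58 without 4-OHT (p of 0.024 and adjusted p of 1.00 in limma). GBE1, the glycogen branching enzyme, differed by 0.41 between PAX3-FKHR-ER cells with and without 4-OHT (p of 0.116 in limma). In pK1 cells it differed in the same direction, by 0.33 (p of 0.193 in limma).

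Of 6 hypoxia factors 5 were tested and 0 were called. EPAS1, the HIF-2 alpha subunit, read 21.1, 8.76 and 35.2 in PAX3-FKHR-ER cells with 4-OHT, 12.8, 6.96 and 2.11 in PAX3-FKHR-ER cells without 4-OHT, 136, 75.1 and 214 in pK1 cells with 4-OHT, and 30.3, 103 and 185 in pK1 cells without 4-OHT. All its PAX3-FKHR-ER signals except 1 lay below all its pK1 signals. It passed the filter, a mean signal of 36.7, through its pK1 arrays, and all 6 PAX3-FKHR-ER signals lay below that level, so no size of the difference is given. Whether EPAS1 bears on any member was not tested.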

How the data were processed

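Biotin-labelled RNA of RD cells was hybridised to 12 Affymetrix human genome arrays, per the labels' protocols. The deposited values are linear intensity signals per probe set. The submitters' processing notes name GCOS and MAS5; their versions are not given in the sources used here. A trimmed mean of 148 to 149 on every array shows scaling to a common target, and median signals were 50.4 to 62.8. No detection calls were used here, and the number of arrays limits the precision.

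Of 22283 probe sets, 68 controls were left out. Of the other 22215, 19065 had 1 symbol in the array annotation, 1043 several and 2107 none; only those with 1 symbol were named, and 0 symbols changed in a RefSeq table, where 19053 were found. Signals were transformed as log2(signal + 16), which understates changes of dim genes. The 40% with the lowest mean signal, under 36.7, were left out, leaving 13329 probe sets and 8124 genes. Group means of all 12 arrays were fitted with limma 3.58.1 in R 4.3.3 (eBayes with intensity trend); tests were two-sided with Benjamini-Hochberg adjustment over all tested probe sets and a threshold of 0.05. The scripts were tested on simulated data. Nothing states that samples came from separate cultures beyond the design text, so p-values measure the spread between these samples.

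Replicate numbers were checked for pairing: deviations of same-numbered arrays from their group means correlated at 0.70 to 0.85 for the 4-OHT pairs and at 0.15 to 0.69 between the constructs. All were above 0.1, and the numbers were taken as pairing the arrays. Between the constructs the values in replicate 2 were only 0.15 without and 0.18 with 4-OHT. The replicate 1 arrays stood apart from the others, which by itself can give same-numbered arrays shared deviations. Arrays of unlike number were not compared, so these correlations cannot show a link beyond that shift. The fit with the replicate block, replicates 2 and 3 alone, other pseudocounts, filters and scalings, and each array left out were tried. These were 22 alternatives in all, and 1 more was added after the values were seen.

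The members and the lists of other pathway genes were chosen with earlier results of these data known. Every member probe set was described, and the brightest tested one stood for its gene. Other genes were named from the lists as those of smallest p in a comparison, and likeness was Pearson's r over the 12 arrays. Plots used matplotlib 3.10.9 and tables pandas 2.3.3, both under Python 3.11.15. Promoter windows came from RefSeq, and protein sequences were not used here.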

Additional observations from a re-analysis of the deposited data

Results flagged for a closer look

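HK2, by its brighter probe set, stood out because its signal was lower with 4-OHT in all 3 PAX3-FKHR-ER pairs and higher with 4-OHT in all 3 pK1 pairs. The difference of the changes was -0.30 log2 units (95% confidence interval -1.33 to 0.73, p of 0.533 and adjusted p of 1.00 in limma). With the replicate block the p was 0.144 and the adjusted p 0.926. The dimmer HK2 probe set had a difference of 0.38, the opposite sign. Without replicate 1 of the untreated PAX3-FKHR-ER cells, and without the block, the difference of the brighter probe set was 0.013.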

How the results depend on the processing

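No member probe set passed the adjusted threshold in limma under any of the 23 alternatives, and the smallest adjusted p was 0.0871. The replicate block ended or added no call, since there was none; it left every estimate as it was and narrowed the interval half-widths of the genes' brightest probe sets to 0.18 to 0.46 log2 units for the 4-OHT changes and 0.25 to 0.79 between the constructs. Of 612 single-gene values over 27 gene comparisons, 601 kept their sign and 11 reversed, each when 1 array was left out; the cause was not tested.

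Each array was left out in turn from the fit without the replicate block, so the array paired with it stayed in. These ranges therefore ignore the pairing and also carry the level differences between replicate numbers. By pairs, HK1 was higher with 4-OHT in all 3 pairs of each construct. In the fits without 1 array, the HK1 change with 4-OHT ran from -0.020 to 0.94 in PAX3-FKHR-ER cells. It ran from -0.39 to 0.73 in pK1 cells, and the difference of the changes ran from -0.34 to 0.78. The lowest of these values came without replicate 1 of the untreated PAX3-FKHR-ER cells, without replicate 1 of the untreated pK1 cells and without replicate 1 of the treated pK1 cells. The difference of the HK1 changes was negative without any 1 of 6 arrays: PAX3-FKHR-ER replicates 2 and 3 with 4-OHT and replicate 1 without it, and pK1 replicate 1 with 4-OHT and replicates 2 and 3 without it. The HK1 difference between the constructs with 4-OHT ran from -0.88 to 0.14, the HK2 difference of the changes from -0.56 to 0.013, and the ALDOC change in pK1 cells from -0.48 to 0.016. The median of the 10 genes ran from -0.10 to 0.050 for 4-OHT in PAX3-FKHR-ER cells, from -0.032 to 0.078 for 4-OHT in pK1 cells and from -0.19 to 0.0033 between the constructs with 4-OHT. For 4-OHT in pK1 cells it was -0.013 after quantile normalization, 0.078 with equal medians, and -0.013 with both pK1 replicate 2 arrays left out, an alternative chosen after seeing the data; its sign is therefore not settled. Dim probe sets such as ALDOC and EPAS1 limit what signal over background can show.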
